A study of Mus musculus with 5 samples.

Results

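C/EBPα peaks that lay in H3K4me1 chromatin and shared no base with a Hoxa9 peak were described in mouse hematopoietic progenitor cells. They were chosen by their overlaps with the other peak lists: 0 bp in common with any Hoxa9 peak, at least 1 bp with an H3K4me1 region and 0 bp with any H3K27me3 region. Of 26446 C/EBPα peaks, 15597 met this rule, a share of 59.0% (95% exact interval 58.4 to 59.6). The other C/EBPα peaks were 3764 that shared bases with Hoxa9, 6570 that touched neither Hoxa9 nor a mark, and 515 without Hoxa9 that touched H3K27me3. The cells came from bone marrow of C57B6 mice, enriched for progenitors by lineage depletion, infected with the retroviruses MIGR1-HA-Hoxa9 and MIGR1-Flag-Meis1, and kept in IL3. Every library came from these cells, so there was no group without the transgenes, and the Hoxa9 seen was the HA-tagged protein of the retrovirus. Chromatin immunoprecipitation and sequencing were done once for each protein or mark. With 1 library per group there was no replicate error, and intervals below cover counting error only.

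C/EBPα is a transcription factor of the basic leucine zipper family that binds DNA as a dimer and directs the differentiation of granulocytes and monocytes from marrow progenitors. Hoxa9 is a homeodomain factor of stem and progenitor cells, and together with its partner Meis1 it transforms marrow cells in culture. H3K4me1 marks enhancers, both active and poised, and is placed on the nucleosomes that flank the DNA a factor occupies. H3K27me3 is the mark of Polycomb repression and was absent from the peaks described here because the rule required it.

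The strength of a peak was read from its tags, the number of sequenced fragments that the authors' caller counted in it, which were scaled neither to depth nor to peak width. The 15597 C/EBPα-only peaks in H3K4me1 held between 15 and 3605 tags, with a median of 38 and a middle range (25th to 75th percentile) of 23 to 67. Peaks of 100 tags or more are called strong: they numbered 1986, or 12.7% (12.2 to 13.3), close to the 12.6% among all C/EBPα peaks. They held 36.7% of all tags in the 15597 peaks. C/EBPα peaks shared with Hoxa9 in H3K4me1 were strong in 30.9% of cases (29.3 to 32.4), and C/EBPα-only peaks without either mark in 3.07% (2.67 to 3.52). C/EBPα-only peaks in H3K4me1 thus lay between these classes in strength. Their median tags were 38, against 66 in the shared class and 23 in the class without marks. Median widths followed the same order, at 661 bp against 827 and 527 bp. The classes were set by touching, and a wider peak can touch more, so this order cannot be told apart from peak width.

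Tags, width and enrichment moved together. Strong peaks had a median of 135 tags and were a median of 1050 bp wide, with a fold enrichment of 25.6 at the median. The other 13611 peaks had a median of 33 tags, were 630 bp wide and reached a fold enrichment of 7.28 by the same measure. Because tags chose the strong peaks, these differences are a description. The limit of 100 tags fell in the middle of a continuous range: 90 peaks with 98 or 99 tags had a median fold enrichment of 18.12, and 83 peaks with 100 tags or 1 more had 21.27. The limits of the overlap rule were as gradual. The 190 peaks that shared only 1 to 50 bp with H3K4me1 had a median of 24.5 tags, and 175 C/EBPα-only peaks that stopped less than 50 bp short of a region had 24. A Hoxa9 peak lay less than 50 bp away from 28 of the 15597 peaks, which had a median of 32 tags, and 24 excluded peaks shared at most 50 bp with Hoxa9, with a median of 32.5 tags.

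The strong share varied little between chromosomes, with a mean of 12.6% ± 1.65 (SD over 20 chromosomes). The lowest value was 8.19% on chromosome X, which held 14 strong peaks of 171, and the highest was 15.3% on chromosome 17. For every 100 H3K4me1 regions there were 15.6 ± 0.889 C/EBPα-only peaks (SD over 20 chromosomes), from 14.05 on chromosome 4 to 17.0 on chromosome 3. Chromosome X, with 14.4, was inside this range.

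Some of the peaks with most tags were barely enriched. Of the 10 with most tags, 4 lay within a few kb of each other on chromosome 2 (all positions on mm9) and had low fold enrichments, from 1.19 to 2.55. The first, chr2:98506156-98507684, held 3605 tags at a fold enrichment of 1.19. The H3K4me1 region under it held 3483 tags at a fold enrichment of 1.22. Its neighbours chr2:98502069-98503461, chr2:98503698-98504477 and chr2:98504952-98505495 held 2502, 1136 and 686 tags at fold enrichments of 1.59, 2.55 and 2.16. At these 4 peaks both libraries had many tags and low fold enrichments, and the nearest Hoxa9 summit lay 2641567 bp from the first peak. The 3 strongest peaks by tags whose region held no other factor peak were the first 3 of these 4. Only 6 of the 15597 peaks exceeded 500 tags per kb, these 4 and chr13:77577832-77578482 and chrX:139917464-139917925, with fold enrichments from 1.19 to 3.7. They held 1.005% of all tags. Among strong peaks, 15 had a fold enrichment under 5, and 98.7% had one of 10 or more.

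The other 6 of the 10 peaks with most tags had fold enrichments from 15.7 to 93.77. The peak chr7:25791195-25792512 held 538 tags at a fold enrichment of 91.14 and lay in an H3K4me1 region of 3389 bp, with the nearest Hoxa9 summit 189578 bp away. The peak chr4:116792460-116793839 held 464 tags at 83.08, but its summit lay outside H3K4me1: it touched 3 regions, and the one it shared most with was 445 bp wide and held only 14 tags. The peak chr5:54327986-54329274 held 430 tags at 70.96 inside a region of 2358 bp. The peak chr1:178755816-178757472 held 428 tags at 93.77, and its region held a further C/EBPα peak with its summit 1431 bp away. The peak chr14:55324281-55326147 held 419 tags at 55.8, touched 2 regions and had its summit outside both. The widest of the 10, chr1:90172139-90176741, spanned 4603 bp with 766 tags at 15.7. None of the 10 regions held a Hoxa9 peak. Over all 15597 peaks the region held one in only 5.89% of cases, so nothing is read from these 10. The highest fold enrichment among the 15597 peaks was 94, at chr3:19347372-19348498, a peak picked with its value known, with 309 tags and a Hoxa9 summit 7884 bp away.

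**Figure D1:**
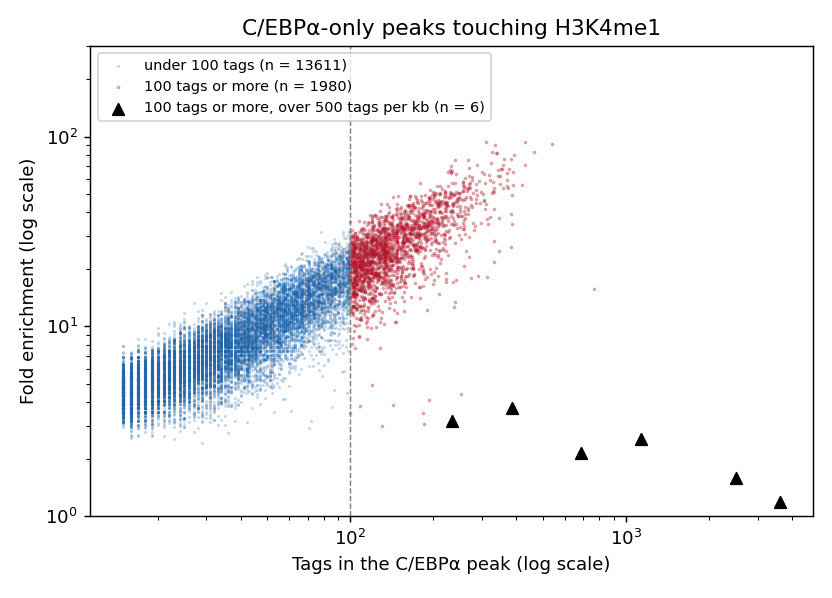
Tags (horizontal, log scale) against fold enrichment (vertical, log scale) of each of the 15597 C/EBPα-only peaks in H3K4me1; the dashed line marks 100 tags. Enrichment rises with tags in most peaks; 15 strong peaks lie under a fold enrichment of 5, among them the 6 peaks of over 500 tags per kb (triangles), which have up to 3605 tags and fold enrichments of at most 3.7.

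Stronger C/EBPα peaks lay in wider and more enriched H3K4me1 regions. The region that shared most bases with a peak is called its home region. In 5 bands of rising C/EBPα tags (15 to 24, 25 to 49, 50 to 99, 100 to under 200, and 200 or more), the median width of the home region was 1403, 1590, 1851, 2218 and 2496 bp. The median H3K4me1 fold enrichment of the region was 6.06, 6.25, 6.67, 7.15 and 7.62 in the same order. The H3K4me1 list came from another library, but the home region was picked by its overlap with the C/EBPα peak. Stronger peaks were wider and could touch more regions, so these medians are not free of peak width. Over all strong peaks the home region spanned 2257 bp at the median against 1604 bp for the rest, wider on 20 of 20 chromosomes. Its H3K4me1 enrichment was 7.25-fold against 6.31-fold at the median, higher on 19 of 20. Within classes of region width the medians lay closer together. In regions of 2000 to under 4000 bp the medians were 7.925 for strong and 7.61 for other peaks, in regions of 1000 to under 2000 bp 6.3 and 6.15, in regions under 1000 bp 4.61 and 4.48, and in regions of 4000 bp or more 9.4 and 9.52. No test was made of these medians.

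The rule asked only that peak and region touch, so the summit, the point of highest C/EBPα signal, could lie outside. It lay inside an H3K4me1 region in 86.2% of the peaks (85.6 to 86.7), close to the 85.3% among all C/EBPα peaks that touched H3K4me1. For strong peaks the share was 83.7% (82.0 to 85.3) and for the rest 86.5% (86.0 to 87.1), a difference of -2.86 percentage points (Fisher's exact test, two-sided, p = 0.000728, adjusted p = 0.00146 over 4 results). It was lower in strong peaks on 17 of 20 chromosomes and in every class of region width, with 57.2% against 70.4% in regions under 1000 bp and 95.3% against 97.6% in regions of 4000 bp or more. On chromosome X the share was only 50% of 14 strong and 54.8% of 157 other peaks. Without chromosome X the difference was -2.99 points. Peaks of 1 library are not replicates and some share a region, so these p-values describe the lists alone. Strong peaks were wider, at a median of 1050 bp against 630 bp. A wider peak can touch a region, as the rule asked, with its summit further outside. The test therefore cannot tell strength from peak width. The difference depended on how regions and peaks were bounded. It was 0.245 points with H3K4me1 regions joined across gaps of up to 1000 bp, and 0.0552 points with every C/EBPα peak set to 200 bp on either side of its summit (Fisher's exact adjusted p = 0.764 and 0.969).

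Where the summit lay outside, strong peaks more often sat in a gap between called regions. Of 324 strong peaks with an outside summit, 39.2% (33.8 to 44.7) touched a region on both sides of the summit, and 56.2% had a region within 1000 bp on either side. Of 1831 other peaks with an outside summit the shares were 19.3% (17.5 to 21.2) and 38.8%. Among those that touched a region on both sides, the gap around the summit had a median width of 367 bp for strong and 235 bp for other peaks. Over all peaks, inside or outside, 20.1% of the strong and 8.32% of the rest touched 2 or more regions, higher in strong peaks on 20 of 20 chromosomes, against 12.4% among all C/EBPα peaks that touched H3K4me1. A wider peak can reach further regions, and strong peaks were wider. In a window of fixed width, 500 bp to either side of the summit, 18.5% of strong peaks (16.8 to 20.3) and 14.7% of the rest (14.2 to 15.4) met 2 or more regions, higher in strong peaks on 17 of 20 chromosomes. The contrast was thus smaller at a fixed width.

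C/EBPα peaks shared with Hoxa9 met broken H3K4me1 calls more often than C/EBPα-only peaks of the same strength. In the 5 bands of tags, 4.59%, 7.82%, 13.2%, 18.6% and 27.9% of C/EBPα-only peaks touched 2 or more regions. The shares in peaks shared with Hoxa9 were 11.6%, 17.5%, 22.7%, 34.2% and 44.8%. The exact intervals did not overlap in any band, and median peak widths in the bands differed little, at 1025 bp and 1069 bp from 100 to under 200 tags, where home regions had a median width of 2218 and 2534 bp. In the fixed window of 500 bp to either side, 18.5% of strong C/EBPα-only and 34.5% of strong shared peaks met 2 or more regions. This contrast was not tested.

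**Figure D2:**
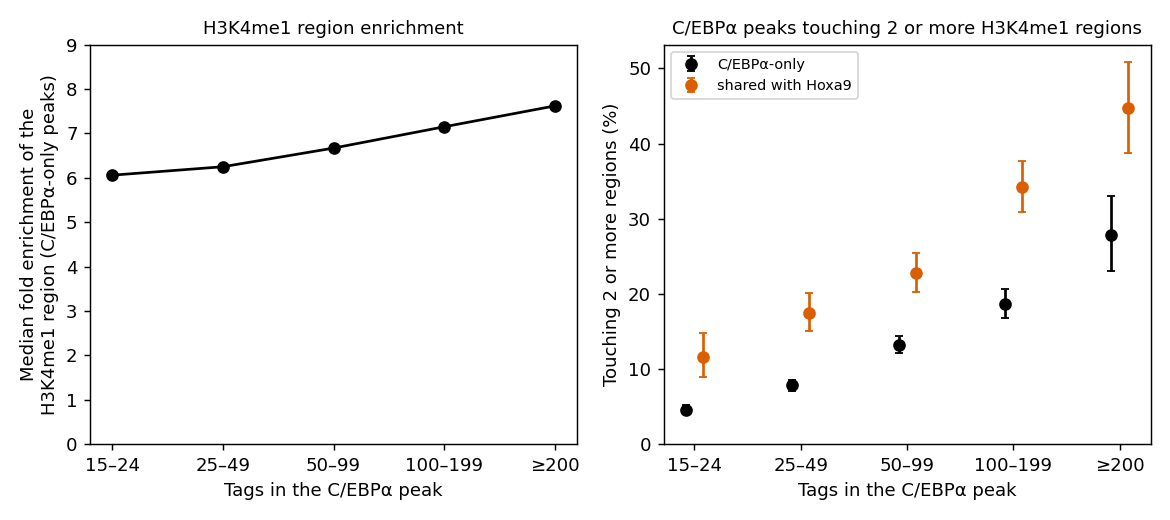
Left, median H3K4me1 fold enrichment of the home region of C/EBPα-only peaks in 5 bands of C/EBPα tags; right, percent of C/EBPα peaks touching 2 or more H3K4me1 regions, with 95% exact intervals, for C/EBPα-only peaks and peaks shared with Hoxa9. Enrichment goes from 6.06 to 7.62, and the shared class lies above the C/EBPα-only class in every band.

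The extent of H3K4me1 around the summit differed between strong and other peaks. By the rule every peak touched H3K4me1 within its own bounds, and strong peaks were wider. Near the summit, the shape of the profile therefore cannot be told apart from peak width. At strong summits a region was present in 83.7% of cases, and in 85.3% and 86.0% at 400 bp below and above the summit in genome coordinates. At the other summits the share was highest at the summit, 86.5%, and was 78.4% and 77.0% at 400 bp. At 1200 bp it was 60.9% and 60.5% for strong and 44.3% and 44.3% for the other peaks. The profile of strong C/EBPα-only peaks was thus nearly flat over this span, with intervals at the summit and at 400 bp that overlapped. Peaks shared with Hoxa9 had a dip, with 81.6% at the summit and 87.9% and 88.8% at 400 bp, and were at 66.2% and 65.4% at 1200 bp.

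**Figure D3:**
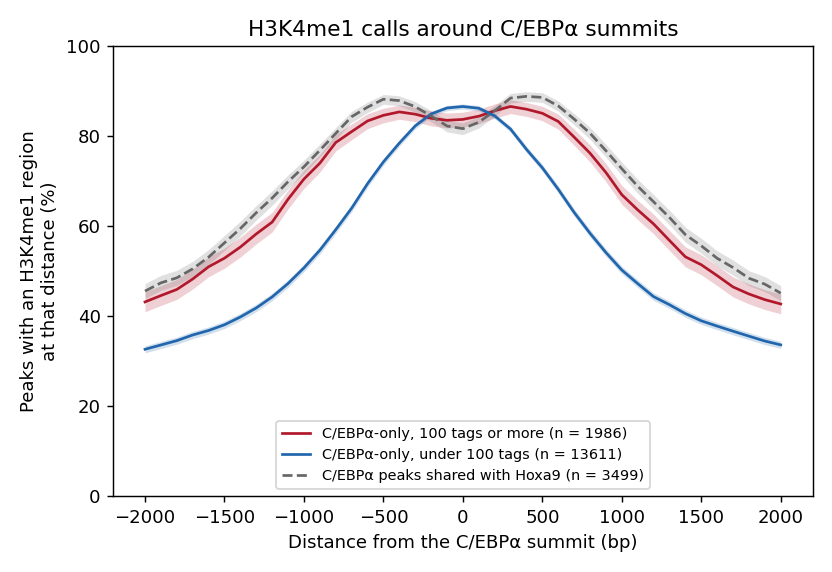
Percent of C/EBPα peaks with an H3K4me1 region (vertical) at distances up to 2000 bp from the C/EBPα summit (horizontal), with 95% exact intervals as bands. Peaks under 100 tags have a single maximum of 86.5% at the summit, whereas strong peaks are at 83.7% at the summit and 85.3% and 86.0% at 400 bp and peaks shared with Hoxa9 are higher at 400 bp than at the summit. All peaks shown were required to touch a region within their own bounds, and strong peaks are wider.

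Inside the region, strong summits lay around the midpoint more often than the others. Of 1662 strong summits inside a region, 54.2% (51.8 to 56.6) lay in the third of the region that surrounds its midpoint, against 46.8% (45.9 to 47.7) of the other 11780. The difference was 7.39 percentage points (Fisher's exact test, two-sided, p = 1.91e-08, adjusted p = 7.65e-08 over 4 results) and had this sign on 18 of 20 chromosomes. By tag band the shares were 44.6%, 46.4%, 50.015%, 54.8% and 50.9%, the last over 269 peaks of 200 tags or more, with an interval of 44.8 to 57.1, so no rise beyond 200 tags was seen. The excess was not only central: of 10 equal steps along the region, the step at its lower coordinate held 8.42% of strong (7.13 to 9.86) and 5.53% of other summits (5.12 to 5.95), and the step at its upper coordinate 5.66% and 5.67%. The central difference varied with region width. It was 11.2 points in regions of 2000 to under 4000 bp (64.2% against 52.9%) and 10.6 in regions of 4000 bp or more, but 2.10 in regions of 1000 to under 2000 bp and -5.90 in regions under 1000 bp (Fisher's exact adjusted p = 1.12e-06, 0.000277, 0.418 and 0.244). With strong set at 200 tags it was 3.26 points and did not pass (Fisher's exact adjusted p = 0.394). The median distance from an inside summit to the nearer end of its region was 841 bp for strong and 533 bp for other peaks. As a fraction of region width this distance was 0.352 and 0.319 at the median, where 0.5 is the midpoint. The C/EBPα summit and the highest point of the H3K4me1 region were a median of 498 bp apart for strong and 348 bp for other peaks. Distances in bp can grow with region width, and strong peaks lay in wider regions.

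**Figure D4:**
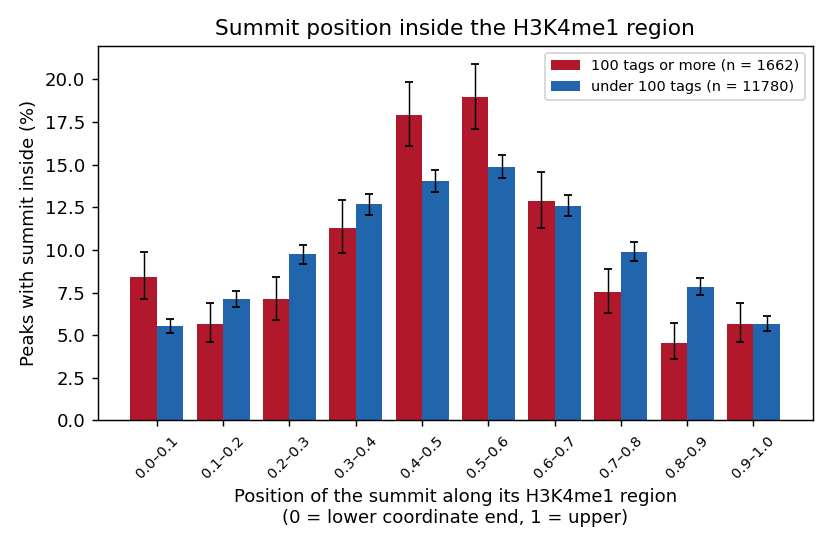
Percent of C/EBPα-only peaks with a summit inside H3K4me1 (vertical) by the position of the summit along the region in 10 equal steps from its lower to its upper coordinate (horizontal); bars start at 0 and lines are 95% exact intervals. In the 2 central steps strong peaks reach 17.9% and 19.0%, and the other peaks 14.04% and 14.9%.

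Most H3K4me1 regions that held a C/EBPα-only peak held 1. Of 100189 regions, 14537 were home to such a peak, or 14.5%. Of these 13592 were home to 1, 848 to 2, 81 to 3, 14 to 4 and 2 to 5. Median region width grew in the same order, with 1475, 4232.5, 6608, 9262 and 14761.5 bp. The share of regions that were home to a C/EBPα-only peak also grew with width, from 7.09% of those under 1000 bp to 19.0%, 34.3% and 56.2% of those of 4000 bp or more.

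The 5 regions with most C/EBPα-only peaks were between 13135 and 20432 bp wide. The region chr7:108207927-108224314 was home to 5, with 35, 30, 74, 36 and 32 tags, and held 1 Hoxa9 peak. The region chr10:80394848-80407982 was also home to 5, with 31, 69, 73, 43 and 56 tags, and held no Hoxa9 peak. No peak of either region was strong. The region chr11:78884065-78904496 was home to 4, with 19, 17, 140 and 332 tags. The region chr6:90690913-90707359 was home to 4, with 20, 45, 28 and 130 tags, and chr15:27592149-27606435 to 4, with 90, 48, 16 and 35 tags and 1 Hoxa9 peak.

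Of the 848 regions home to exactly 2 C/EBPα-only peaks, both were strong in 15, 1 was strong in 218 and neither in 615. Only 12.7% of all C/EBPα-only peaks were strong, and no expected number was computed, so no contrast is read from these counts. The tags of the 2 peaks showed almost no relation, with a Spearman's rho of -0.0529 over these 848 regions, given as a description, since both come from the same library. Their summits were a median of 1588.5 bp apart, from 295 to 13365 bp.

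Another C/EBPα peak of any kind touched the home region of 16.6% of the C/EBPα-only peaks (16.0 to 17.2), close to the 17.3% among all C/EBPα peaks that touched H3K4me1. The share was 18.2% (16.6 to 19.997) for strong and 16.4% (15.8 to 17.0) for other peaks, and the difference of 1.86 percentage points did not pass the test (Fisher's exact p = 0.0389, adjusted p = 0.0518). It had this sign on 12 of 20 chromosomes. Within classes of region width the sign turned. In regions of 2000 to under 4000 bp the share was 15.1% for strong and 21.7% for other peaks, and in regions of 4000 bp or more 53.9% and 60.4%, differences of -6.60 and -6.47 points (Fisher's exact adjusted p = 0.000174 and 0.0164). In regions of 1000 to under 2000 bp the difference was -1.97 and in those under 1000 bp -0.0855, and neither passed (Fisher's exact adjusted p = 0.0950 and 1). Strong peaks lay in wide regions more often, 22.4% of them against 14.9% of the rest in regions of 4000 bp or more. They also filled more of a region: in regions of 2000 to under 4000 bp the overlap with H3K4me1 amounted to a median of 36.9% of the region for strong and 22.3% for other peaks. Per 100 kb of region outside the peak, there were 8.31 other C/EBPα peaks beside strong ones (6.78 to 10.1, exact Poisson) and 10.7 beside the rest (9.94 to 11.4) in regions of 2000 to under 4000 bp. In regions of 4000 bp or more these rates were 13.6 (12.1 to 15.1) and 14.4 (13.7 to 15.1), in regions of 1000 to under 2000 bp 4.9996 (3.01 to 7.81) and 5.97 (5.20 to 6.82), and in regions under 1000 bp 4.53 (0.934 to 13.2) and 3.76 (2.70 to 5.10). The intervals overlapped in all 4 classes, which is not a test, and these rates were not tested. A region home to several peaks entered once for each, so a neighbour can be counted more than once. The intervals take the counts as independent.

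Without reference to regions, strong peaks had C/EBPα neighbours somewhat more often. Another C/EBPα summit lay between 1000 and 5000 bp from 36.4% of strong peaks (34.3 to 38.6) and 32.5% of the rest (31.7 to 33.3), higher in strong peaks on 15 of 20 chromosomes. Between 5000 and 20000 bp the shares were 63.2% (61.0 to 65.3) and 62.0% (61.2 to 62.8), with overlapping intervals.

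The rule barred Hoxa9 from the peak itself but not from the rest of the region. A Hoxa9 peak touched the home region of 918 of the 15597 C/EBPα-only peaks, or 5.89% (5.52 to 6.27). Counted by region, 781 of 14537 home regions, 5.37%, held Hoxa9, against 6.22% of all H3K4me1 regions. In 234 of the 781, none of the Hoxa9 peaks that touched the region met a C/EBPα peak in it. Home regions of 4000 bp or more held Hoxa9 in 24.3% of cases (22.3 to 26.3), and regions of that width without any C/EBPα peak in 13.4% (11.3 to 15.8). In the 3 narrower classes the order was the opposite, with 0.273% and 1.18% under 1000 bp, 1.69% (1.33 to 2.10) and 3.69% (3.42 to 3.98) from 1000 to under 2000 bp, and 6.54% and 8.74% from 2000 to under 4000 bp. The rule removes a C/EBPα peak that meets Hoxa9, and in a narrow region little length is left for Hoxa9 beside the peak, so no comparison is read from these shares.

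Strong and other C/EBPα-only peaks had Hoxa9 elsewhere in the region equally often when widths were not considered. The share was 5.89% (4.90 to 7.02) for 1986 strong peaks and 5.88% (5.50 to 6.29) for the rest, a difference of 0.00629 percentage points (Fisher's exact p = 1, adjusted p = 1). It was higher in strong peaks on 8 of 20 chromosomes. Within regions of 2000 to under 4000 bp it was 3.74% against 6.64%, and in those of 4000 bp or more 19.3% against 24.1%, differences of -2.90 and -4.79 points (Fisher's exact adjusted p = 0.00361 and 0.0302). It was 1.10% against 1.75% in regions of 1000 to under 2000 bp, and 0 of 327 against 0.294% in regions under 1000 bp, where 0 of 327 allows up to 1.12% (exact interval), and neither difference passed (Fisher's exact adjusted p = 0.418 and 1). Given the region widths of strong peaks, the other peaks would have had a share of 8.17%. The rule removed every C/EBPα peak that met Hoxa9, and a wider peak can meet more. Strong peaks were wider, at a median of 1050 bp against 630 bp. These tests therefore cannot tell strength from peak width under the rule. Per 100 kb of region outside the peak there were 2.02 Hoxa9 peaks for strong (1.30 to 2.98) and 3.11 for other C/EBPα-only peaks (2.73 to 3.54) in regions of 2000 to under 4000 bp, and 4.02 (3.27 to 4.91) and 4.75 (4.36 to 5.15) in regions of 4000 bp or more. These intervals overlapped in both classes, and the rates were not tested. A Hoxa9 peak was counted once for each C/EBPα-only peak of its region, which the intervals do not allow for. With C/EBPα peaks set to 200 bp on either side of the summit, the overall difference was 1.49 points in the other direction from that within width classes (Fisher's exact adjusted p = 0.0209). In that setting the C/EBPα-only peaks were chosen again with the new bounds. The sign also turned with other limits for strong, to -0.260 points at 50 tags, -0.320 at 200 tags and -0.744 with the same number of peaks taken by fold enrichment, and none of these 3 passed (Fisher's exact adjusted p = 0.527, 0.905 and 0.269).

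A count that used no region gave no contrast. A Hoxa9 summit lay between 1000 and 5000 bp from 9.82% of strong (8.54 to 11.2) and 10.2% of other peaks (9.73 to 10.8), and was more frequent beside strong ones on 9 of 20 chromosomes. The median distance to the nearest Hoxa9 summit was 45708 bp for strong and 48420 bp for other peaks. The rule had removed the C/EBPα peaks that met Hoxa9, and no background distance was computed. These distances are therefore read neither as near nor as far.

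**Figure D5:**
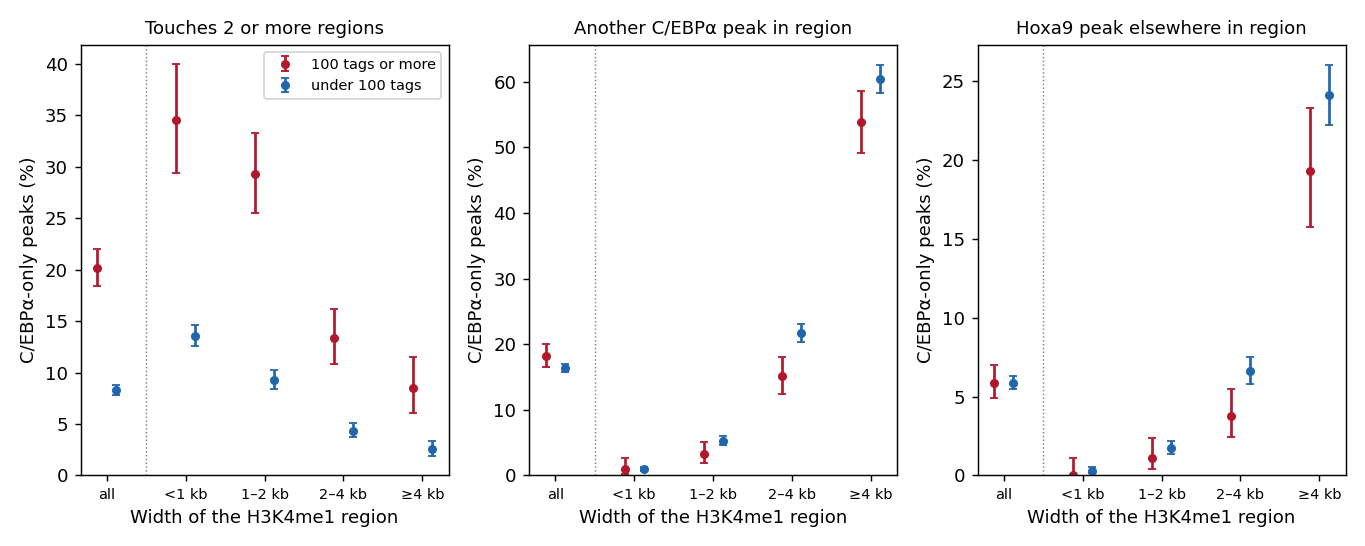
Percent of C/EBPα-only peaks (vertical) that touch 2 or more regions, whose home region holds another C/EBPα peak, or whose home region holds a Hoxa9 peak, for all peaks and by region width (horizontal), with 95% exact intervals. For another C/EBPα peak, strong peaks are at 18.2% against 16.4% over all widths but below the other peaks in regions of 2000 bp or more.

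Where a region held both, the peaks were apart by rule, since bases shared with Hoxa9 were barred. No background distance was computed, so the distances between them are a description. The 918 C/EBPα-only peaks had their summit a median of 1867.5 bp from the nearest Hoxa9 summit of the same region, and 54.1% (50.9 to 57.4) were within 2000 bp. The nearest Hoxa9 peak of the region shared bases with another C/EBPα peak in 69.0% of the 918 cases (65.8 to 71.9). Its median strength over these cases was 37 tags, with 37 beside strong and 37 beside other C/EBPα-only peaks. Over all 6578 Hoxa9 peaks, each counted once and not limited to H3K4me1, the share was 56.9% and the median 32 tags. The 918 cases lay in 781 regions, so a Hoxa9 peak can be counted more than once. The values for the 918 cases and for all Hoxa9 peaks are therefore not compared.

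In the 3 closest strong cases the Hoxa9 peak had 21 to 34 tags. The peak chr17:89853313-89854241 held 151 tags at a fold enrichment of 35.96. A Hoxa9 peak of 34 tags, chr17:89852541-89853270, had its summit 864 bp away in the same region of 1674 bp. The peak chr15:6518836-6519778 held 104 tags at 14.81, with a Hoxa9 peak of 21 tags at chr15:6518157-6518613 and 872 bp between summits. The peak chr16:3706320-3707471 held 178 tags at 39.65, with a Hoxa9 peak of 21 tags at chr16:3707524-3708065 and 875 bp between summits. Tags of the C/EBPα and Hoxa9 lists are not on 1 scale, and the lowest count called was 15 in the one and 17 in the other, so Hoxa9 below that level at the C/EBPα-only peaks was not detectable here.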

How the data were processed

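The series held 5 libraries of the same kind of culture, 4 precipitations and 1 input; the input was not used here. The submitters' processing notes name BWA 0.6.2, MACS 1.4 and CASAVA 1.8.2, and the build mm9. For caller settings, control library and depth, no value is given in the sources used here. The deposited lists hold, per the file headers, a tag count per peak, a score of 10 times the −log10 p-value, a linear fold enrichment ratio and a false discovery rate in percent, with start, end and a summit offset, called separately per library. Here the summit was placed at start plus offset, uncertain by 1 bp. Scores of exactly 3100 occurred in 100 strong peaks.

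Overlap meant at least 1 bp. The home region was the H3K4me1 region sharing most bases with a peak. Shares carry exact Clopper-Pearson intervals at 95%. The 4 differences between strong and other peaks were tested with Fisher's exact test, two-sided, adjusted together by the Benjamini-Hochberg method at 0.05 (scipy 1.17.1, Python 3.11.15). The overlap code was tested on simulated lists. The members, lists and comparisons were chosen with earlier results of these data known. Peaks named were the 10 with most tags, the 5 regions with most C/EBPα-only peaks, the 3 strong peaks closest to Hoxa9 in their region and the 3 with most tags in regions without another factor peak. Alternatives changed the overlap, score, regions and strong limit. Genes and sequences under the peaks were not analysed here.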

Additional observations from a re-analysis of the deposited data

How the results depend on the processing

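Of 72 alternatives to 9 results, 34 kept direction and side of the threshold or stayed within the interval of the main value; 18 of the 72 were chosen after seeing the data (fixed C/EBPα peak width, removal of the 6 peaks with over 500 tags per kb, any touched region, and the narrowest and widest class of regions). With at least 50% of the peak inside H3K4me1, C/EBPα-only peaks in H3K4me1 were 52.2% of all C/EBPα peaks, 96.1% had the summit inside, 6.39% had Hoxa9 and 17.8% another C/EBPα peak in the region. At a score of 100 or more in the 4 lists, these shares were 62.6%, 87.1%, 3.83% and 14.6%, and 18.6% were strong. With no Hoxa9 peak within 500 bp the first share was 57.8%. With regions merged across gaps of up to 1000 bp, 91.4% had the summit inside, 11.7% had Hoxa9 and 29.6% another C/EBPα peak in the region.

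The remaining values are strong minus other peaks in percentage points. Another C/EBPα peak in the region passed the test at 2.16 with 50% of the peak inside, 4.86 with merged regions, 1.67 with strong at 50 tags, 2.43 at fixed width, 1.91 with the 6 densest peaks removed and 3.56 with any touched region. With only the strongest peak of each region kept it was 7.70, but that choice mostly drops weaker peaks from regions with several, which lowers the share of the other peaks (9.49%) by construction. Another C/EBPα peak turned to -0.0855, -1.97, -6.60 and -6.47 in the 4 classes of region width from narrow to wide. Hoxa9 elsewhere turned to -0.294, -0.656, -2.90 and -4.79 in these classes, to -0.260 with strong at 50 tags, -0.320 at 200 tags and -0.744 with strong by fold enrichment, and passed at 1.49 with fixed width. The summit inside turned to 0.245 with merged regions and 0.0552 with fixed width, and did not pass at -2.96 with strong at 200 tags. The central position did not pass at 3.26 with strong at 200 tags and 2.10 in regions of 1000 to under 2000 bp, and turned to -5.90 in regions under 1000 bp. Fewer peaks remain at 200 tags and within classes of width; otherwise the cause was not tested. Counts of tags set what could be called, and peaks below 15 tags are missing. No paired analysis was possible because each group has 1 library.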
